A study of Homo sapiens with 4 samples.

Results

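The receptor tyrosine kinases described here are the 10 genes EGFR, ERBB2, PDGFRA, PDGFRB, MET, FGFR1, AXL, DDR1, DDR2 and KDR, taken by their gene name from 58735 genes in the deposited expression files. They are receptors that are often studied in glioma. Each name matched 1 gene, and all 10 passed the filter of a mean expression of at least 1 over the 4 libraries. RNA was sequenced from the glioblastoma (GBM) cell lines U251 and U87, either as Control or after brusatol (Bru), a plant-derived compound, for 48 h at a concentration named only as IC50. The groups were therefore U251 Control, U251 Bru, U87 Control and U87 Bru, with 1 library each, and lists of 4 values keep this order. With 1 library each, no difference below has a replicate check. What the Control cells of the sequencing received is not given in the sources used here. In RNA of a whole culture, fewer cells with a transcript and less of it per cell cannot be told apart.

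Receptor tyrosine kinases are membrane proteins that bind a growth factor or matrix ligand outside the cell, pair up and phosphorylate each other inside it. The phosphorylated tails recruit adaptor proteins, which pass the signal to RAS, the MAP kinases and AKT. EGFR and ERBB2 belong to the epidermal growth factor receptor family, PDGFRA and PDGFRB bind platelet-derived growth factors, and MET binds hepatocyte growth factor. FGFR1 binds fibroblast growth factors, AXL binds GAS6, KDR is the main receptor for VEGFA, and DDR1 and DDR2 are receptors for collagen. In gliomas EGFR, PDGFRA and MET are known for gene amplification.

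Expression is given as FPKM, the fragments counted on a gene per kilobase of its exons and scaled to the size of the library. The fragments behind each value, called reads here, could be recovered exactly, and they added up to between 17083896 and 21453561 per library. The receptors had between 15 reads (PDGFRA in U87 Bru) and 10295 reads (DDR1 in U251 Control). All intervals are exact 95% intervals, which cover counting error only and not the variation between cultures. Of 6 glial and neural stem markers, VIM, NES, SOX2 and GFAP had an FPKM of at least 1 in both U251 libraries and VIM alone in both U87 libraries. In U87 NES had 1.46 in Control and 0.569 in Bru, SOX2 was listed at 0 in Control and at 0.05 in Bru and S100B at 0 in both. S100B was also listed at 0 in U251 Bru. OLIG2, the remaining marker, went the other way and was higher in U87. Its FPKM values were 0.0284, 0.0644, 0.627 and 1.05, from 2, 4, 38 and 61 reads. Only the treated U87 library thus had OLIG2 at an FPKM of at least 1. None of the endothelial, leukocyte or epithelial markers reached an FPKM of 1 in any library.

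MET, AXL and EGFR stood at similar levels in both untreated lines, whereas 7 of the 10 receptors differed more than 2-fold between them. MET (ENSG00000105976, chr7:116672390-116798386 of GRCh38, plus strand) had FPKM values of 54.2, 62.7, 75.5 and 74.2 in the order of groups given above. AXL (ENSG00000167601, chr19:41219203-41261766, plus strand) had values of 50.9, 76.5, 65.5 and 71.2 FPKM. These receptors were thus abundant in all 4 libraries, above 93.4% or more of the tested genes in each. Relative to U251 Control, the U87 Control library was 1.39-fold higher for MET (log2 ratio 0.48, interval from 0.43 to 0.52). AXL was 1.29-fold higher there (log2 ratio 0.36, interval from 0.31 to 0.42). EGFR (ENSG00000146648, chr7:55019021-55211628, plus strand) had an FPKM of 12.5, 15.7, 12.3 and 13.3, and on FPKM it held rank 4 of the 10 in every library. Per length of the longest transcript, ERBB2 and FGFR1 stood above it in U251 Control. The log2 ratio of EGFR between the untreated lines was -0.02 (interval from -0.09 to 0.05), and this depth did not resolve a difference.

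**Figure D1:**
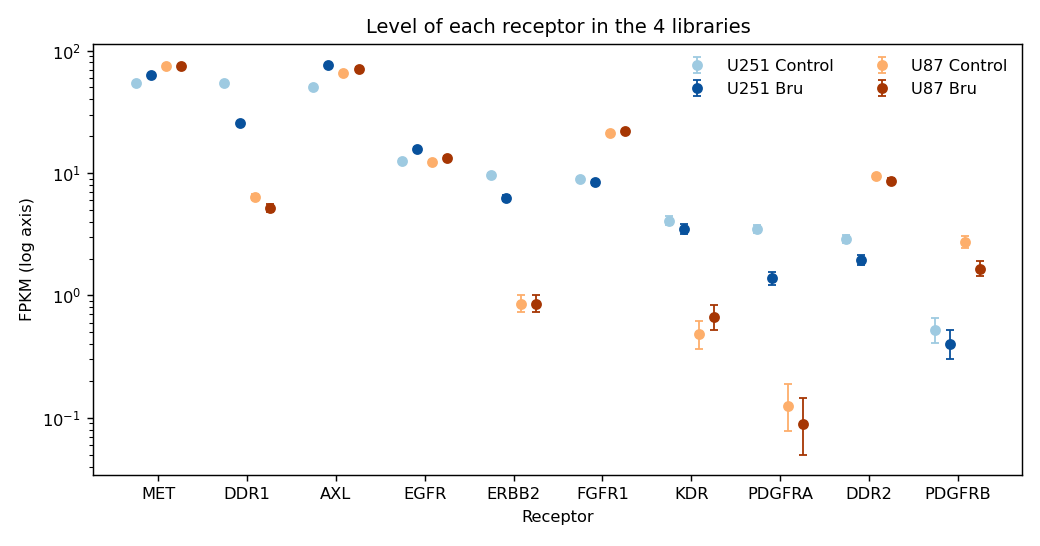
FPKM of the 10 receptors (log axis) in U251 Control, U251 Bru, U87 Control and U87 Bru, 1 library each, with bars for the exact 95% counting interval. MET and AXL lie between 50.9 and 76.5 in all 4 libraries, while PDGFRA lies between 0.0885 and 3.48.

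4 receptors were lower in untreated U87 than in untreated U251 by more than 2-fold. DDR1 (ENSG00000204580, chr6:30876421-30900156, plus strand) had FPKM values of 53.8, 25.5, 6.37 and 5.20. Both U251 libraries were above both U87 libraries, and the untreated lines differed 8.45-fold (log2 ratio -3.08, interval from -3.17 to -2.99). ERBB2 (ENSG00000141736, chr17:39687914-39730426, plus strand), which has no known ligand of its own and signals through its partners, had an FPKM of 9.63, 6.26, 0.858 and 0.857. Its untreated level was 11.2-fold lower in U87 (log2 ratio -3.49, interval from -3.73 to -3.26). KDR (ENSG00000128052, chr4:55078259-55125595, minus strand) had an FPKM of 4.08, 3.49, 0.481 and 0.665, which was 8.49-fold lower in untreated U87 (log2 ratio -3.09, interval from -3.51 to -2.69). PDGFRA (ENSG00000134853, chr4:54229097-54298247, plus strand) had an FPKM of 3.48, 1.38, 0.125 and 0.0885. With 711 reads in U251 Control and 22 in U87 Control, PDGFRA had a gap of 27.8-fold without a pseudocount (log2 ratio -4.80, interval from -5.48 to -4.19). On FPKM + 0.1 its log2 ratio was -3.99, and on FPKM + 1 it was -1.99, smaller in size than that of DDR1 (-2.90) and ERBB2 (-2.52). Endothelial cells usually carry KDR, and of their 5 markers PECAM1, CDH5, VWF, TEK and TIE1 none was past an FPKM of 0.499, with a summed FPKM of 0.354 in U251 Control and 0.597 in U87 Control and TEK listed at 0 in both.

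3 receptors were higher in untreated U87. FGFR1 (ENSG00000077782, chr8:38400215-38468834, minus strand) had FPKM values of 8.95, 8.37, 21.4 and 22.0, and the untreated lines differed 2.39-fold (log2 ratio 1.26, interval from 1.19 to 1.32). DDR2 (ENSG00000162733, chr1:162631373-162787400, plus strand) had an FPKM of 2.91, 1.95, 9.39 and 8.65, 3.23-fold higher in untreated U87 (log2 ratio 1.69, interval from 1.56 to 1.82). PDGFRB (ENSG00000113721, chr5:150113837-150155872, minus strand) had an FPKM of 0.521, 0.401, 2.74 and 1.66, and its untreated level was 5.25-fold higher in U87 (log2 ratio 2.39, interval from 2.04 to 2.77). Pericytes usually carry PDGFRB. Of the pericyte markers RGS5, ABCC9, KCNJ8 and NOTCH3, 1 reached an FPKM of 1 in each Control library, but not the same gene. ABCC9 had 0.0123 in U251 Control and 2.10 in U87 Control, higher in U87 like PDGFRB, while RGS5 had 1.75 and 0.154 and KCNJ8 had 0.921 and 0.0446. The summed FPKM was 2.71 and 2.40 with none listed at 0, and the part of these cells in the level of PDGFRB was not tested.

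A gene was called past 2-fold where its log2 ratio on FPKM + 0.1 was above 1 or below -1. Between the untreated lines 14.5% of the 12949 tested genes were called higher in U87 and 16.0% lower, against 3 and 4 of the 10 receptors. ERBB2, PDGFRA, PDGFRB and KDR were under an FPKM of 1 in 1 of the lines and passed the filter through the other. A gene that passes only in this way has to be higher on average in that other line, though not by 2-fold. The median log2 ratio of the receptors was 0.17 and that of all tested genes was -0.01.

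PDGFRA and PDGFRB stood in opposite order in the lines, while the order of the other pairs of one family depended on the gene length used. DDR1 was 18.5-fold above DDR2 in U251 Control (interval from 17.1 to 20.1) and 13.1-fold above it in U251 Bru, but on FPKM DDR2 was 1.47-fold above DDR1 in U87 Control and 1.67-fold in U87 Bru. PDGFRA was 6.68-fold above PDGFRB in U251 Control and 3.45-fold in U251 Bru, whereas PDGFRB was 21.9-fold above PDGFRA in U87 Control and 18.7-fold in U87 Bru. On FPKM EGFR exceeded ERBB2 by 1.3-fold, 2.51-fold, 14.4-fold and 15.5-fold. These ratios compare FPKM, which are per length, and the length used is that of all annotated exons. For DDR1, ERBB2 and FGFR1 this length was 2.20, 2.09 and 2.23 times that of the longest transcript, and for the other members between 1.06 and 1.48 times. Per length of the longest transcript, DDR1 was above DDR2 in U87 as well, 1.41-fold in Control and 1.25-fold in Bru, and ERBB2 was 1.27-fold above EGFR in U251 Control. PDGFRB remained above PDGFRA in U87, by 18.5-fold and 15.8-fold. Over all 10 receptors, the order of FPKM within a library was MET, DDR1, AXL, EGFR, ERBB2, FGFR1, KDR, PDGFRA, DDR2 and PDGFRB in U251 Control, and the intervals of MET and DDR1 and of ERBB2 and FGFR1 overlapped. In U87 Control the order was MET, AXL, FGFR1, EGFR, DDR2, DDR1, PDGFRB, ERBB2, KDR and PDGFRA, without overlap between neighbours. With the longest transcript the order in U251 Control began with DDR1, MET, AXL, ERBB2, FGFR1 and EGFR, with PDGFRA above KDR, and in U87 Control DDR1 passed DDR2. Which transcripts the cells made was not analysed here.

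The sequence before the start of 3 receptors with different patterns follows, to set the receptors side by side at the level of DNA. KDR was lower in U87, PDGFRB was higher in U87, and MET was nearly level. The RefSeq promoter table (GRCh38.p14) had entries for 9 of the 10 receptors and none for FGFR1, and 4 receptors had a single start. Of these 4, the 3 shown have at most 30 of the 250 bases before the start in an annotated exon. The capitals mark the GC box GGGCGG on either strand, the letters that the factor SP1 is known to bind.
KDR, chr4:55125596-55125845, minus strand: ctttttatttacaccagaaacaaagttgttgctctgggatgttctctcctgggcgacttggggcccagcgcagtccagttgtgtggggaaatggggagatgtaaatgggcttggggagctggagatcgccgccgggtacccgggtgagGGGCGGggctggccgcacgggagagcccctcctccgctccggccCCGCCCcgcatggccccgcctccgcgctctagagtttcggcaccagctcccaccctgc
PDGFRB, chr5:150155846-150156095, minus strand: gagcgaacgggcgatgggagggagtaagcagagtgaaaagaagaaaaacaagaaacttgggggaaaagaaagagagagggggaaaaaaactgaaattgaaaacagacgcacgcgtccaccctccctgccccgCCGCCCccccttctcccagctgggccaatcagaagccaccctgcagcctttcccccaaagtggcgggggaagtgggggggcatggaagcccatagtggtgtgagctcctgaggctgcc
MET, chr7:116671946-116672195, plus strand: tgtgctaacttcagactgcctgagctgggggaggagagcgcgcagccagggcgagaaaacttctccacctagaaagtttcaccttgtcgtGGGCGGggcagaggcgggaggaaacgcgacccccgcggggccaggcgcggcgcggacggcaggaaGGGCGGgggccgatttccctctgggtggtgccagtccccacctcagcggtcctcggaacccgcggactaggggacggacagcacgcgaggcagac
The window of KDR held 17 CG dinucleotides and 2 GC boxes, that of MET 24 and 2, and that of PDGFRB 9 and 1. Across 35116 promoters of the table the median was 11 CG dinucleotides in as many bases, and 42.6% held a GC box. GC boxes are therefore common in such windows. The core of the antioxidant response element, TGACNNNGC on either strand, was in none of the 3 windows and in 10.9% of all, and neither the AP-1 site TGANTCA (6.57% of all) nor the E-box CACGTG (6.34%) was in any of the 3.

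Genes next to a receptor were read from the same libraries. They were the 2 nearest protein-coding genes on each side that do not overlap it and had a mean FPKM of at least 1. Near EGFR the log2 ratio of untreated U87 to U251 was -0.47 for SEC61G, 0.22 for LANCL2 and -0.30 for VOPP1, so that none was past 2-fold. GRB10, which also met the rule, lies 4230 kb away (0.06). Next to ERBB2, STARD3 had a log2 ratio of 0.01, CDK12 of -0.18, ORMDL3 of -0.07 and GSDMB of 0.62, while ERBB2 itself was far lower in U87. MIEN1 and PGAP3, which overlap ERBB2, had an FPKM of 14.3 and 3.48 in U251 Control and of 20.4 and 3.44 in U87 Control. PDGFRA and KDR lie 780 kb apart on chromosome 4 and were both lower in U87. CHIC2 and LNX1, before PDGFRA, had log2 ratios of -0.71 and -0.77, and SRD5A3 and TMEM165, after KDR, had log2 ratios of -0.12 and -0.31. Around DDR1 the picture was different, because FLOT1 (log2 ratio -2.68), VARS2 (-1.70) and CCHCR1 (-1.84) were also lower in U87, and IER3 was higher (1.79). DDR2 was higher in U87 among neighbours that were lower there, namely UHMK1 (-1.07), UAP1 (-2.50), HSD17B7 (-0.84) and RGS4 (-6.41). PDGFRB lay beside ARSI, which was higher in U87 as well (7.25), and beside HMGXB3, TIGD6 and TCOF1, which differed by 0.49 or less. MET, nearly level between the lines, lay beside CAV2 (-1.92), CAV1 (-0.14), CAPZA2 (0.11) and ST7 (0.69). FGFR1 had DDHD2 (0.30), NSD3 (-0.54), TACC1 (0.06) and PLEKHA2 (-1.44) as neighbours, and AXL had SNRPA (-0.45), EGLN2 (-0.71), HNRNPUL1 (-0.73) and TGFB1 (-0.06). Copy number was not analysed here.

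In U251, Bru was followed by lower DDR1 and PDGFRA and by higher AXL. Of the 10 receptors, 2 were called past 2-fold lower and 0 higher, where 5.44% of all tested genes were called lower and 3.36% higher. DDR1 went from 10295 to 4313 reads, a log2 ratio of -1.08 (interval from -1.13 to -1.03), and PDGFRA from 711 to 249 reads, a log2 ratio of -1.34 (interval from -1.55 to -1.12). DDR1 lay close to the cutoff, and its log2 ratio on FPKM + 0.1 was -1.07 and, after scaling to the 75th percentile, -0.987. It was -0.996 after scaling to the summed reads of all genes that are not mitochondrially encoded. That scaling also replaced the library size behind the deposited FPKM, and the part of the mitochondrially encoded genes in it was not separated. PDGFRA had -1.28 on FPKM + 0.1 and -0.91 on FPKM + 1. Of the tested genes 4.52% had a lower ratio than DDR1 and 2.93% a lower ratio than PDGFRA.

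The other receptors of U251 moved less than 2-fold. ERBB2 had a log2 ratio of -0.62 (interval from -0.72 to -0.52), DDR2 of -0.57 (from -0.76 to -0.39), KDR of -0.22 (from -0.41 to -0.04) and FGFR1 of -0.10 (from -0.18 to -0.01). AXL went from 5497 to 7308 reads, a log2 ratio of 0.59 (interval from 0.54 to 0.64), and became the highest of the 10 in U251 Bru, ahead of MET. EGFR had a log2 ratio of 0.33 (from 0.26 to 0.40) and MET of 0.21 (from 0.16 to 0.25). For PDGFRB, with 78 and 53 reads, the log2 ratio was -0.38 (interval from -0.91 to 0.14), and this depth did not resolve a change. At a lower cutoff of 1.5-fold, AXL was called higher and DDR1, PDGFRA and ERBB2 lower, where 11.3% of all tested genes were called higher and 15.6% lower. AXL stood just past that cutoff, at 1.504-fold on FPKM + 0.1. The median log2 ratio of the 10 receptors was -0.26, against -0.03 for all tested genes. It was -0.15 on FPKM + 1, and 0.06 over the 6 receptors with a mean FPKM of at least 5.

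In U87, no receptor was called past 2-fold in either direction, where 1.92% of all tested genes were called higher and 1.41% lower. PDGFRB had the lowest ratio of the 10, from 353 to 206 reads, a log2 ratio of -0.72 (interval from -0.98 to -0.47). It was the 1 receptor past 1.5-fold, where 4.56% of all tested genes were called higher and 4.49% lower, and 3.13% of the tested genes had a lower ratio. DDR1 had a log2 ratio of -0.29 (from -0.43 to -0.16) and DDR2 of -0.12 (from -0.21 to -0.02). AXL had a log2 ratio of 0.12 (from 0.07 to 0.17) and EGFR of 0.11 (from 0.03 to 0.18). The intervals of MET, FGFR1, ERBB2, KDR and PDGFRA included 0. They were narrow for MET (from -0.07 to 0.02) and FGFR1 (from -0.02 to 0.09), and wide for KDR (from -0.05 to 0.99) and PDGFRA (from -1.55 to 0.51), which had 57 and 22 reads in U87 Control. The median log2 ratio of the receptors was -0.01 and that of all tested genes was -0.04.

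**Figure D2:**
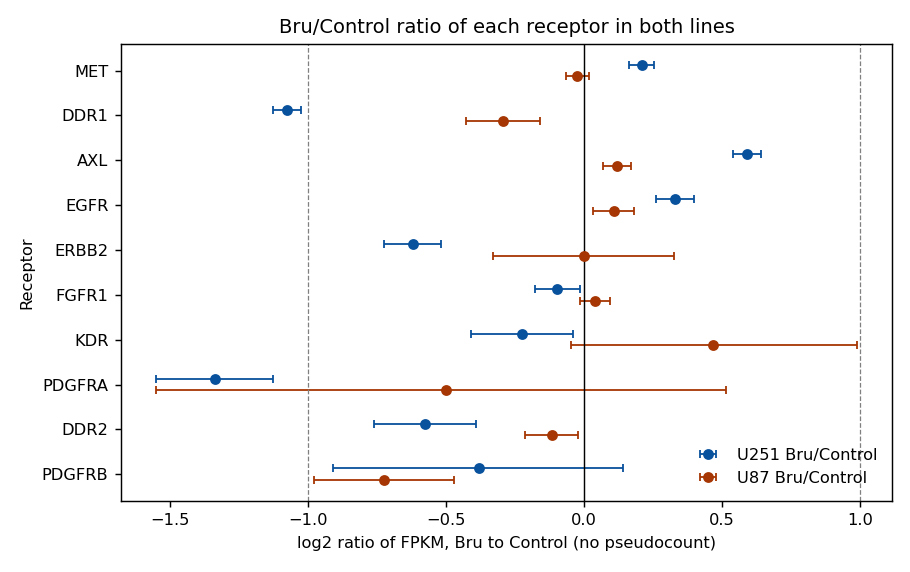
Ratio of Bru to Control FPKM (log2, no pseudocount) for each receptor in U251 (blue) and U87 (brown), with exact 95% counting intervals and dashed lines at 2-fold. DDR1 (-1.08) and PDGFRA (-1.34) in U251 are the 2 points beyond the dashed lines.

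The ratio of Bru to Control was smaller in size in U87 than in U251 for 8 of the 10 receptors, on FPKM + 0.1. PDGFRB and KDR were the exceptions. The ratios of all 12949 tested genes were also less spread in U87, with a standard deviation of 0.50 against 0.66 in U251. The share of all tested genes with a smaller ratio in U87 was not counted. The differences of the log2 ratios, U87 minus U251, are also on FPKM + 0.1, while their intervals come from the reads without a pseudocount. The difference was 0.78 for DDR1 (interval from 0.64 to 0.93), 0.61 for ERBB2 (from 0.27 to 0.96) and 0.44 for DDR2 (from 0.25 to 0.67). It was 0.62 for KDR (from 0.14 to 1.25) and 0.13 for FGFR1 (from 0.04 to 0.24). For the receptors that were higher in U251 Bru it was negative, with -0.47 for AXL (from -0.54 to -0.40), -0.22 for EGFR (from -0.32 to -0.12) and -0.23 for MET (from -0.29 to -0.17). The intervals included 0 for PDGFRA (difference 1.02, from -0.24 to 1.87) and for PDGFRB (-0.38, from -0.93 to 0.25). Which concentration of Bru each line received for sequencing is not given in the sources used here, so that a difference between the lines and a difference in dose cannot be told apart.

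After Bru, the lines stood closer together for 5 of the 7 receptors that differed more than 2-fold between the Control libraries. The 7 were taken by their gap in those Control libraries, a choice that can by itself favour a smaller gap afterwards. How often the gap narrowed among all tested genes past 2-fold was not counted. The gap of PDGFRA went from 27.8-fold to 15.6-fold, that of ERBB2 from 11.2-fold to 7.31-fold, and that of DDR1 from 8.45-fold to 4.91-fold. KDR went from 8.49-fold to 5.25-fold and PDGFRB from 5.25-fold to 4.14-fold. Counting error resolved the change of the gap for 3 of these 5, DDR1, ERBB2 and KDR, and not for PDGFRA and PDGFRB. The gap widened from 3.23-fold to 4.43-fold for DDR2 and from 2.39-fold to 2.62-fold for FGFR1. AXL, 1.29-fold higher in U87 Control than in U251 Control, was 1.07-fold lower in U87 Bru than in U251 Bru.

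**Figure D3:**
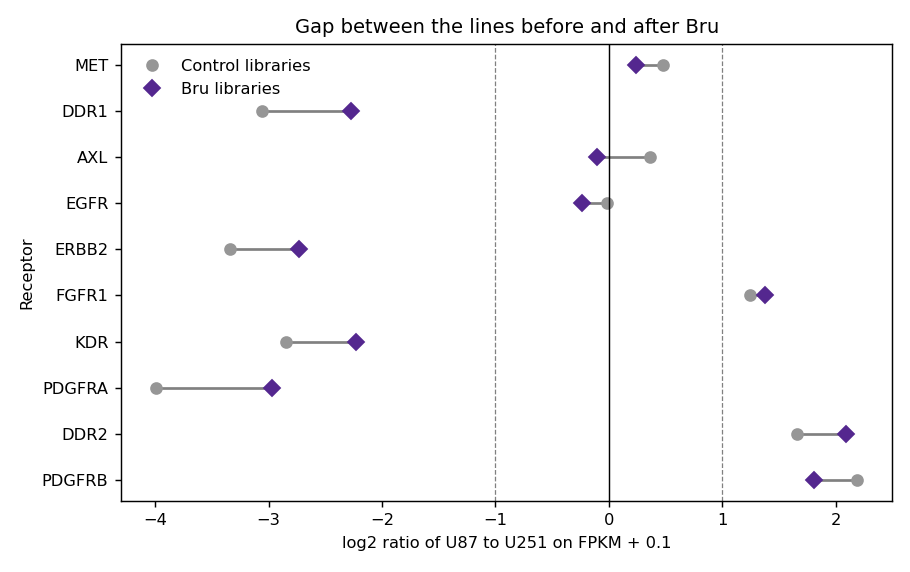
Log2 ratio of U87 to U251 on FPKM + 0.1 for each receptor, in the Control libraries (grey circles) and the Bru libraries (purple diamonds), with dashed lines at 2-fold. PDGFRA moves from -3.99 to -2.97 and DDR1 from -3.06 to -2.27, while DDR2 moves away from 0, from 1.66 to 2.09.

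The 10 receptors were set against the other 48 genes of the receptor tyrosine kinase family, per length of all annotated exons. Their summed FPKM was 201, 202, 195 and 198, so that on this length it differed little between the libraries. Per length of the longest transcript, DDR1 alone stood at 118, 56.1, 14.0 and 11.4, against 53.8, 25.5, 6.37 and 5.20 on FPKM. Neither this sum nor the shares below were computed with that length. The sum of the other 48 was 332, 173, 80.8 and 81.2. The 10 receptors therefore made up 37.7%, 53.9%, 70.7% and 70.9% of the family's FPKM. MET and AXL alone held 19.7%, 37.1%, 51.2% and 52.1% of it. Most of the remainder in U251 came from ephrin receptors. EPHA2, the family's highest gene in both U251 libraries, had FPKM values of 170, 81.2, 38.9 and 38.5. EPHA3 stood at 63.9 FPKM in U251 Control and at 22.1 in U251 Bru, whereas U87 Control had 0 reads and U87 Bru had 1, which was at least 2570-fold lower in untreated U87 against a floor of 3 reads.

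**Figure D4:**
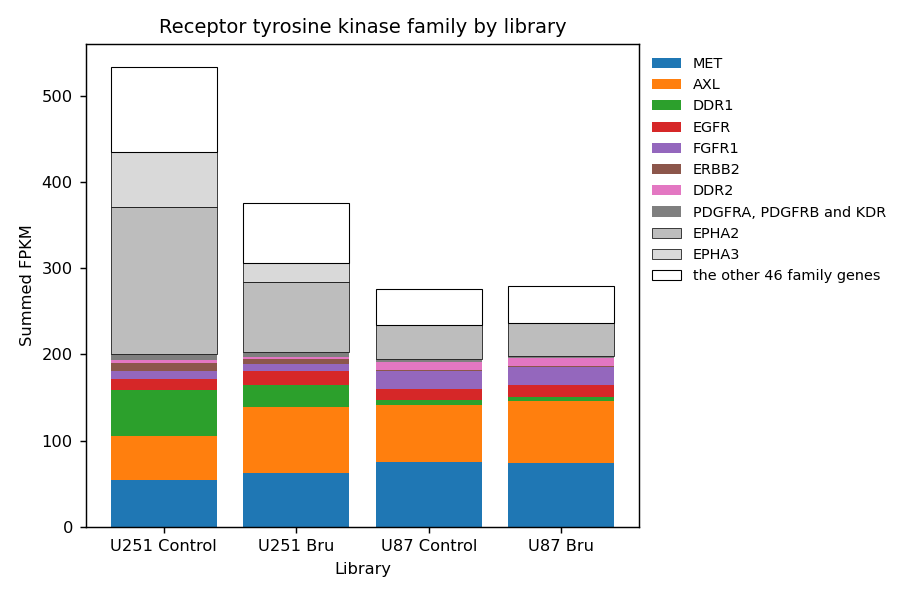
Summed FPKM of the receptor tyrosine kinase family in each library, with the 10 receptors in colour (PDGFRA, PDGFRB and KDR drawn as 1 dark grey band), and EPHA2, EPHA3 and the rest of the family in light grey and white. Per length of all annotated exons, the coloured part lies between 195 and 202, while the part above it is 332 in U251 Control and 173 in U251 Bru.

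Of these 48 genes, 13 passed the filter. In U251, 4 of the 13 were called lower and 0 higher, against 5.44% and 3.36% of all tested genes (median log2 ratio -0.63), namely EPHA3 (-1.53), PTK7 (-1.19), EPHA2 (-1.06) and FGFR3 (-1.05). In U87, 0 of 13 were called, against 1.41% of all tested genes called lower and 1.92% higher. However, FGFR3, EPHA3, EPHA4, EPHA5 and PTK7 were under an FPKM of 1 in both U87 libraries. Between the untreated lines 8 of 13 were called lower in U87 and 0 higher, against 16.0% and 14.5% of all tested genes. Of the 8, those 5 passed the filter through U251 alone and had to be higher there on average, though not by 2-fold. The others were EPHA2 (-2.12), EPHB4 (-2.28) and IGF1R (-2.33). PTK7, a pseudokinase of Wnt signalling, had 4469 reads in U251 Control and 1 in U87 Control. ERBB3, the usual partner of ERBB2, had an FPKM of 0.10 or less in all 4 libraries.

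The ligands of the receptors were measured as well, as a list of 36 growth factors of which 17 passed the filter. In U251, 3 of 17 were called lower after Bru and 0 higher, against 5.44% and 3.36% of all tested genes. Of the 17, 15 had a ratio below 0 (median log2 ratio -0.55), where the median of all tested genes was also below 0 (-0.03). TGFA, a ligand of EGFR, went from an FPKM of 18.1 to 3.94 (log2 ratio -2.18). EGF, which gave the receptor its name, went from 2.86 to 1.09 (log2 ratio -1.31). HBEGF, another ligand of EGFR, went from 15.5 to 9.73 (log2 ratio -0.67), while EGFR itself was 1.26-fold higher. BTC, also a ligand of EGFR, had 2.47 and 2.45 (log2 ratio -0.01, interval from -0.37 to 0.34). GAS6, the ligand of AXL, went from 8.68 to 3.40 (log2 ratio -1.33), while AXL was 1.51-fold higher. In U87, 0 of 17 were called, against 1.41% of all tested genes called lower and 1.92% higher. Here 13 had a ratio below 0, with a median of -0.25, against a median of -0.04 for all tested genes. EGF, PDGFD and GAS6 were under an FPKM of 1 in both U87 libraries, as EREG and HGF were in U251. There TGFA had an FPKM of 9.92 in Control and 8.18 in Bru (log2 ratio -0.28), and GAS6 had 0.184 and 0.220.

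Between the untreated lines 5 of the 17 ligands were called higher in U87 and 5 lower, against 14.5% and 16.0% of all tested genes. EREG, HGF and PDGFD had the largest differences of the list. These genes and GAS6 passed the filter through 1 line alone, so that they had to be higher in that line on average. EREG, a ligand of EGFR, stood at 0.0167 FPKM (2 reads) in untreated U251 and at 23.9 in untreated U87, a log2 ratio without a pseudocount between 8.63 and 13.5. HGF, the ligand of MET, had 1 read in U251 Control and 753 in U87 Control (interval from 7.29 to 15.1), and its FPKM in U87 went from 4.24 to 2.54 with Bru (log2 ratio -0.72). PDGFD, a ligand of PDGFRB, had 309 reads in U251 Control and 0 in U87 Control, at least 88.7-fold lower in U87 against 3 reads. PDGFD was thus read in the line with low PDGFRB. PROS1, a ligand of other receptors of the AXL family, stood at 6.06 FPKM in untreated U251 and 24.9 in untreated U87, and GAS6 at 8.68 and 0.184. VEGFA, a ligand of KDR, had FPKM values of 14.6, 11.9, 9.02 and 9.79. VEGFC, which can also bind KDR, had 9.48, 7.13, 32.5 and 23.0 and was called higher in untreated U87 (log2 ratio 1.77). FGF2, a ligand of FGFR1, had 15.0, 9.80, 7.30 and 10.1.

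Collagens are the ligands of DDR1 and DDR2, and 6 of the 9 listed genes passed the filter. In U251, 5 of 6 were called lower, against 5.44% of all tested genes, with a median log2 ratio of -1.33. In U87, 2 of 6 were called lower, COL1A2 (-2.04) and COL1A1 (-1.17), against 1.41% of all tested genes, with a median of -0.52. COL5A1 had -1.44 in U251 against -0.70 in U87, and COL5A2 had -1.39 against -0.35. In U251 the collagens and DDR1 were therefore lower in the same library. Between the untreated lines 5 of 6 were called lower in U87 and 1 higher, against 16.0% and 14.5% of all tested genes. COL4A1 and COL4A2 were lower by log2 ratios of -3.95 and -4.39, and COL1A1 was higher by 4.29. COL1A2 (-2.49), COL5A1 (-1.38) and COL5A2 (-1.98) were lower as well. COL4A1 was under an FPKM of 1 in both U87 libraries and COL1A1 in both U251 libraries, and each passed the filter through the other line.

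Of 12 co-receptors and sheddases that passed the filter, 3 were called lower in U251 Bru, against 5.44% of all tested genes. All 12 had a ratio below 0, from -1.34 to -0.20, with a median of -0.62, where the median of all tested genes was also below 0 (-0.03). FGFRL1, a relative of the FGF receptors without a kinase domain, had a log2 ratio of -1.34 in U251 against -0.47 in U87. GPC1, a heparan sulphate proteoglycan that binds growth factors, had -1.33 and -0.68, and the membrane protease ADAM9 had -1.16 and -0.46. In U87, 0 of 12 were called, against 1.41% of all tested genes called lower and 1.92% higher. There 11 of the 12 had a ratio below 0, with a median of -0.22, against a median of -0.04 for all tested genes. Between the untreated lines 3 of 12 were called lower in U87 and 0 higher, against 16.0% and 14.5% of all tested genes. They were FGFRL1 (log2 ratio -2.69), NRP2, a co-receptor for VEGF proteins (-2.15), and PLXNB1, a semaphorin receptor that can associate with MET (-1.73).

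Of 20 proteins that limit or degrade receptors, 1 was called lower in U251, LRIG1, and 0 higher, and 0 were called in U87. Of all tested genes 5.44% were called lower and 3.36% higher in U251, and 1.41% and 1.92% in U87. LRIG1, a membrane protein that promotes the degradation of EGFR family receptors, went from an FPKM of 24.97 to 5.34 in U251 (log2 ratio -2.20), and it had 2.05 and 2.66 in U87 (log2 ratio 0.36). The medians of this list were 0.01 in U251 and -0.01 in U87. PTPRJ, a receptor phosphatase, had log2 ratios of -0.80 and -0.14, and GRB10, an adaptor that inhibits receptors, had -0.72 and -0.48. Between the untreated lines 3 of the 20 were called lower in U87 and 2 higher, against 16.0% and 14.5% of all tested genes. Those called lower were LRIG1, LRIG3 and PTPRJ (-3.54, -1.49 and -1.38). Of 31 adaptors and relays that passed the filter, 0 were called in either line, with medians of -0.05 in U251 and -0.09 in U87. Those with the largest change were NCK2 (-0.90 and -0.21), AKT1 (-0.92 and -0.15) and MAPK3 (-0.57 and -0.47). GRB2, the adaptor that links receptors to SOS and RAS, had an FPKM of 45.7, 44.2, 34.0 and 34.0. Between the untreated lines 2 of 31 were called higher in U87 and 6 lower, against 14.5% and 16.0% of all tested genes, with HRAS at 1.32, GAB2 at -2.02 and STAT3 at -1.36.

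Reads can be lost or shared where genes overlap, and the kit named for these libraries does not mark strand. Of the bases in the exons of PDGFRA, 15.8% are also in an exon of AC058822.1, which had 0 reads in all 4 libraries. For ERBB2 this share was 7.41%, with MIEN1 and PGAP3. For the other 8 receptors it was between 0 and 2.12%. EGFR-AS1, an antisense gene of EGFR, had 25 reads in the 4 libraries together.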

How the data were processed

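U251 and U87 cells, as Control or after 48 h of Bru, were represented by 1 RNA-seq library each. The authors deposited FPKM per gene with the gene lengths used. The submitters' processing notes name HISAT2 2.0.5, StringTie 1.3.3b, featureCounts 1.5.0-p3 and DESeq2 1.16.1 without their settings. They also name hg18, whereas coordinates and exon lengths of all 58735 genes equal those of GENCODE release 29 on GRCh38, which was used here.

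FPKM multiplied by length was a whole multiple of 1 step per library for 100% of values (tolerance 0.01 reads), which gave the reads and a library size of 17406238 to 20974002. This size was not the plain sum of the reads, with 20974002 against 21453561 in U251 Control. Ratios of single receptors were computed without a pseudocount, with exact Clopper-Pearson intervals at 95%. The interval of a difference between lines is the exact conditional one of an odds ratio on the reads, while the difference itself is on FPKM + 0.1. Calls, gene lists and neighbours used log2 ratios on FPKM + 0.1. The 12949 tested genes averaged an FPKM of 1 or more. The cutoff was 2-fold. No p-value was computed, since each condition has 1 library. A floor of 3 reads was used against libraries with 0 reads.

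The receptors and lists were chosen with earlier results of these data known. Named were, per list, the 3 that moved most on average with Bru, the 3 with the largest difference between untreated lines and genes called alike in both lines, with ligands beside their receptor. ERBB3, GRB2, EPHA2, EPHA4, EPHA5, EPHB4, IGF1R and the genes overlapping receptors were named after their values were seen. The symbol RGS5 had 2 genes, of which the one with more reads was used. The calculations used Python 3.11.15, NumPy 2.4.6, pandas 2.3.3 and SciPy 1.17.1, and were tested on simulated data. The 10 alternatives changed the pseudocount, the scaling, the filter or the cutoff, and the longest transcript as length was added after seeing the data.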

Additional observations from a re-analysis of the deposited data

Results flagged for a closer look

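3 receptors had log2 ratios of Bru to Control of opposite sign in the lines, with a counting interval of the difference that excluded 0. They are MET (0.21 in U251 and -0.02 in U87), FGFR1 (-0.09 and 0.04) and KDR (-0.22 and 0.40), on FPKM + 0.1. In U87 the interval of each of the 3 included 0, and the sign of MET there turned to 0.03 with scaling to the 75th percentile. Each line has 1 library per condition, so that the differences were not tested against variation between cultures.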

How the results depend on the processing

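No paired analysis was possible because each group has 1 library and no test was made. In U251 Bru against Control, 2 receptors were past 2-fold. It was 1 with a pseudocount of 1 (DDR1), with scaling to the 75th percentile (PDGFRA) or with a mean FPKM of at least 5 (DDR1, with 6 receptors left). It was also 1 (PDGFRA) with scaling to the summed reads without mitochondrially encoded genes, in place of the library size. At a cutoff of 1.5-fold it was 4 in U251 and 1 in U87, in place of 2 and 0. Between the untreated lines 7 receptors were past 2-fold, and 3 with a mean FPKM of at least 5, which leaves fewer genes. The other counts stayed at their value or within 1.5 times of it. Among log2 ratios of single receptors under an alternative, 24 moved beyond the half-width of their counting interval and 234 did not. The 234 include those under a changed filter, which could not move, because the filter does not enter the ratio of a gene. The sign turned for 3 of 40 ratios and differences, those of EGFR between the untreated lines (from -0.09 to 0.01), ERBB2 in U87 (from -0.01 to 0.05) and MET in U87 (from -0.03 to 0.03). The median of the receptors in U87 turned from -0.01 to 0.04 with scaling to the 75th percentile, and that in U251 from -0.26 to 0.06 with a mean FPKM of at least 5. With the longest transcript as length, chosen after seeing the data, the FPKM ratio of DDR1 to DDR2 in U87 turned to 1.41 in Control and 1.25 in Bru, and that of EGFR to ERBB2 in U251 Control to 0.790. The pseudocount moved PDGFRA between the untreated lines most, from -3.99 to -1.99 with a pseudocount of 1. Depth limits PDGFRA and KDR in U87 and PDGFRB in U251, each with 15 to 78 reads.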
